A study of Mus musculus with 24 samples.

Results

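Expression of 10 glutathione S-transferase genes was followed in the liver of adult mice in which Cre had been used to knock down the growth hormone receptor in hepatocytes. The genes are Gsta2, Gsta3, Gsta4, Gstm1, Gstm2, Gstm3, Gstm4, Gstp1, Gstp2 and Gstt1. The table spells them in capitals (GSTA2, GSTA3, GSTA4, GSTM1, GSTM2, GSTM3, GSTM4, GSTP1, GSTP2 and GSTT1). They were chosen by name, with earlier results of these data known. All 10 were found once each among the 75794 features read from the authors' deposited table. Every member reached 1 TPM (a level corrected for transcript length and for the total of its library) in all 4 groups, so none was lost to low values.

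Glutathione S-transferases join the tripeptide glutathione to reactive, electrophilic molecules, which can then be exported from the cell. The soluble enzymes fall into classes named after Greek letters, among them alpha (Gsta), mu (Gstm), pi (Gstp) and theta (Gstt), and the genes of a class mostly lie side by side in the genome. They are abundant in hepatocytes. In mouse liver, pi-class expression is known to be higher in males than in females, and the pulsatile growth hormone of males acts on sex-biased liver genes through the transcription factor STAT5b.

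The study sequenced polyA-selected liver RNA of 24 C57BL/6 mice with floxed Ghr alleles on both chromosomes (Ghr fl/fl), 6 in each of 4 groups, taken 7 days after a tail vein injection at 10 to 12 weeks of age on standard chow. All vectors were adeno-associated virus serotype 8 (AAV8) driven by the hepatocyte-specific promoter of thyroxine-binding globulin, so other liver cells keep the receptor. Mice named aHepGHRkd received Cre recombinase at a dose of 1.5 (unit 1e+11 genome copies). aHepGHRkd_rIGF1 mice received the same Cre dose with rat IGF1 at 2.0, and aHepGHRkd_STAT5bCA mice received it with a constitutively active mouse STAT5b at 0.75. Control mice received a Null vector without Cre, and Null vector filled the total up to 3.5 where Cre and transgene did not reach it. All samples are labelled male, whereas the treatment text also mentions females. The 3 groups with Cre differ from Control in Cre as well as in the receptor.

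The table gives 1 TPM value per group and, for 3 comparisons, the authors' ratio and p-value, with no value for a single mouse. No SD or range over mice can therefore be given, depth per library is unknown, and each p is the authors'. In the authors' deposited table, Ghr stood at 55.1 TPM in aHepGHRkd, 58.4 in aHepGHRkd_rIGF1, 49.4 in aHepGHRkd_STAT5bCA and 180 in Control. Hepatocyte markers were abundant, with Alb at 75300 TPM in aHepGHRkd and 66647 in Control. The samples carry the cell type label Hepatocyte, yet markers of other liver cells were present, such as the Kupffer cell gene Clec4f at 24.6 TPM in aHepGHRkd and 20.8 in Control and the endothelial gene Clec4g at 31.9 TPM in aHepGHRkd and 30.4 in Control.

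Genes of the set were called in both directions with the receptor knocked down. Of the 10 genes, 6 were higher in aHepGHRkd than in Control (Gsta2, Gsta3, Gsta4, Gstm2, Gstm3 and Gstt1), the pair Gstp1 and Gstp2 was lower, and Gstm1 and Gstm4 did not pass the test (deposited p under 0.05, read as adjusted). Among the 10859 coding features with 1 TPM or more in either group, 6.28% were called, 2.87% higher and 3.41% lower. Since the 10 genes are abundant, the share called was also taken among coding features with 30 TPM or more in either group, where it was 11.1% (5.19% higher and 5.89% lower), a level set after the values were seen. Over all 75794 features it was 1.79%. Because the set was chosen with earlier results of these data known, these shares are a description and no test of the set. The members' median log2 ratio was 0.51, beside 0.03 for coding features with 1 TPM or more. In bulk liver, fewer cells of a type and less RNA per cell cannot be told apart.

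**Figure D1:**
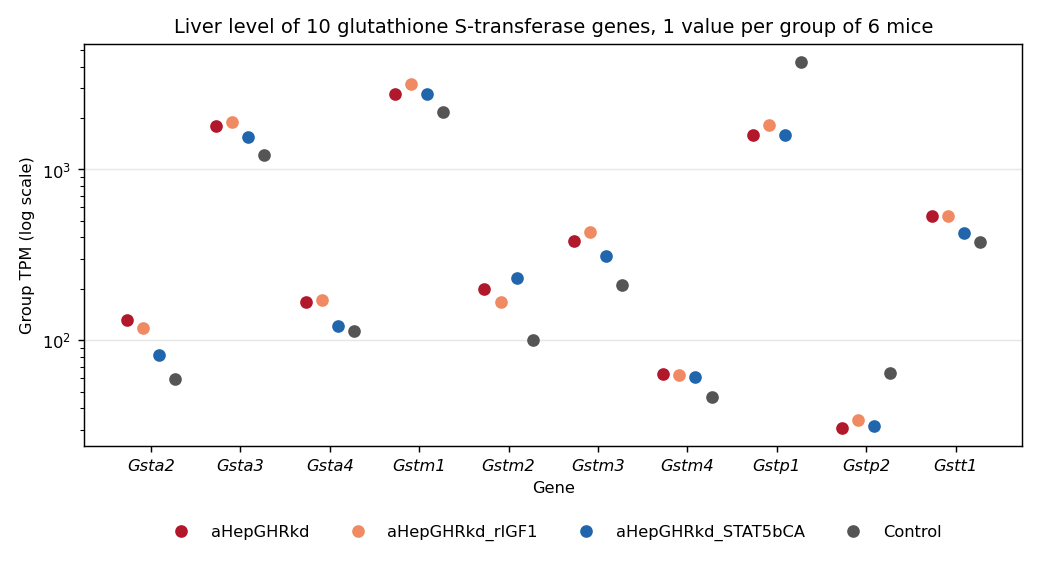
Group TPM of the 10 genes on a log axis, with 1 point per group of 6 mice and no error bars because the table holds no value per mouse. Gstp1 and Gstp2 lie lower in all 3 groups that received Cre than in Control, and the other 8 genes lie higher.

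The pi class carried the largest change in level. Gstp1, the main pi enzyme of mouse liver, which is also known to bind and restrain the kinase JNK, stood at 1601 TPM in aHepGHRkd, 1834 in aHepGHRkd_rIGF1, 1599 in aHepGHRkd_STAT5bCA and 4245 in Control. All 3 Cre groups were therefore low and close together. Its ratio of aHepGHRkd over Control in the authors' deposited table was 0.373 (log2 ratio -1.42, adjusted p = 2.87e-24). The difference of -2644 TPM ranked 6 among the falls in TPM of the 10859 coding features, whereas its ratio ranked 83 among the 370 coding features called lower.

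Gstp2 encodes a close copy of the pi enzyme. It was far less abundant, with 30.8 TPM in aHepGHRkd, 34.0 in aHepGHRkd_rIGF1, 31.3 in aHepGHRkd_STAT5bCA and 64.8 in Control. Its deposited ratio of aHepGHRkd over Control was 0.473 in the authors' deposited table (adjusted p = 6.15e-08). The group order was the same as for Gstp1 except that aHepGHRkd rather than aHepGHRkd_STAT5bCA was lowest. The values of the pair are not independent of each other as measurements. In GENCODE M21 transcripts, 62.3% of the 50-base words of Gstp1 and 72.6% of those of Gstp2 also occur in transcripts of another gene, mainly each other. The sources used here do not say how reads that match both genes were counted.

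The neighbouring Gstp3, a further pi-class gene that is not among the 10, went the other way. It stood at 93.2 TPM in aHepGHRkd, 97.5 in aHepGHRkd_rIGF1, 79.9 in aHepGHRkd_STAT5bCA and 33.4 in Control, with a ratio of aHepGHRkd over Control of 2.79 in the authors' deposited table (adjusted p = 7.50e-23). The 3 pi genes lie on the minus strand of chromosome 19 within 24.0 kb (4035411 to 4059447 on mm9, the build of the table). Gstp3 transcripts share no 50-base word with Gstp1 or Gstp2. An antisense feature, NC_AS_C19_14713, spans Gstp3 and stood at 306 TPM in aHepGHRkd and 301 in Control (ratio 1.00, adjusted p = 1, the authors' deposited table). The sources used here do not state if reads were counted by strand, so reads of Gstp3 and of this feature cannot be told apart.

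The start regions of the pi genes are shown because the copies that fell and the neighbour that rose lie so close together. Each window holds 250 bases before and 50 after the RefSeq start on GRCm38.p6, minus strand, written 5′ to 3′. The windows are chr19:4037863-4038162 for Gstp1, chr19:4042172-4042471 for Gstp2 and chr19:4059398-4059697 for Gstp3. In Gstp1 and Gstp2 the capitals mark the bases that differ or have no partner in a global alignment of that pair. Gstp3 has no capitals because its window could not be lined up closely with either.
Gstp1: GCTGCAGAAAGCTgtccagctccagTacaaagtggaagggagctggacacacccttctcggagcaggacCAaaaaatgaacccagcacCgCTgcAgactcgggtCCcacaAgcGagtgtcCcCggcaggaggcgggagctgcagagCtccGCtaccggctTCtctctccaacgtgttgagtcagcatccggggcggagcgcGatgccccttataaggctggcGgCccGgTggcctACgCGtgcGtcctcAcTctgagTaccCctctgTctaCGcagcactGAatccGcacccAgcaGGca
Gstp2: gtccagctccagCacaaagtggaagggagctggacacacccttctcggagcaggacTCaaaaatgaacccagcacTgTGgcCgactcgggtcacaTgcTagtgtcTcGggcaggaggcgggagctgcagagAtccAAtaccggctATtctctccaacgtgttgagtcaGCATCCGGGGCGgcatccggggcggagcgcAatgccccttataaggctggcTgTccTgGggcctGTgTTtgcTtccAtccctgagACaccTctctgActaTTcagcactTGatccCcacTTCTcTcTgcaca
Gstp3: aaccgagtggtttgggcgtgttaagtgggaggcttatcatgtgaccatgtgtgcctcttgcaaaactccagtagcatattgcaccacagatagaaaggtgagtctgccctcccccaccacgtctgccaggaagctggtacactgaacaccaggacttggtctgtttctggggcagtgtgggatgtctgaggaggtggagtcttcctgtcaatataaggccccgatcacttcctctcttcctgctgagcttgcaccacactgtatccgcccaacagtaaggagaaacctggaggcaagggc

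Gstp1 and Gstp2 were identical in 246 of 319 aligned columns (77.1%). Gstp3 matched Gstp1 in 52.3% and Gstp2 in 50.8% of columns, about the share of the mu pair Gstm1 and Gstm2 (50.6%). Gstm1 has more than a single RefSeq window, and only that at chr3:108017924-108018223 was aligned. Among these 3 genes, the pair with the more similar promoters and transcripts was the pair called lower, which is a description of a single trio. Since reads can match both Gstp1 and Gstp2, their common direction is not independent of the similarity of their transcripts.

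**Figure D2:**
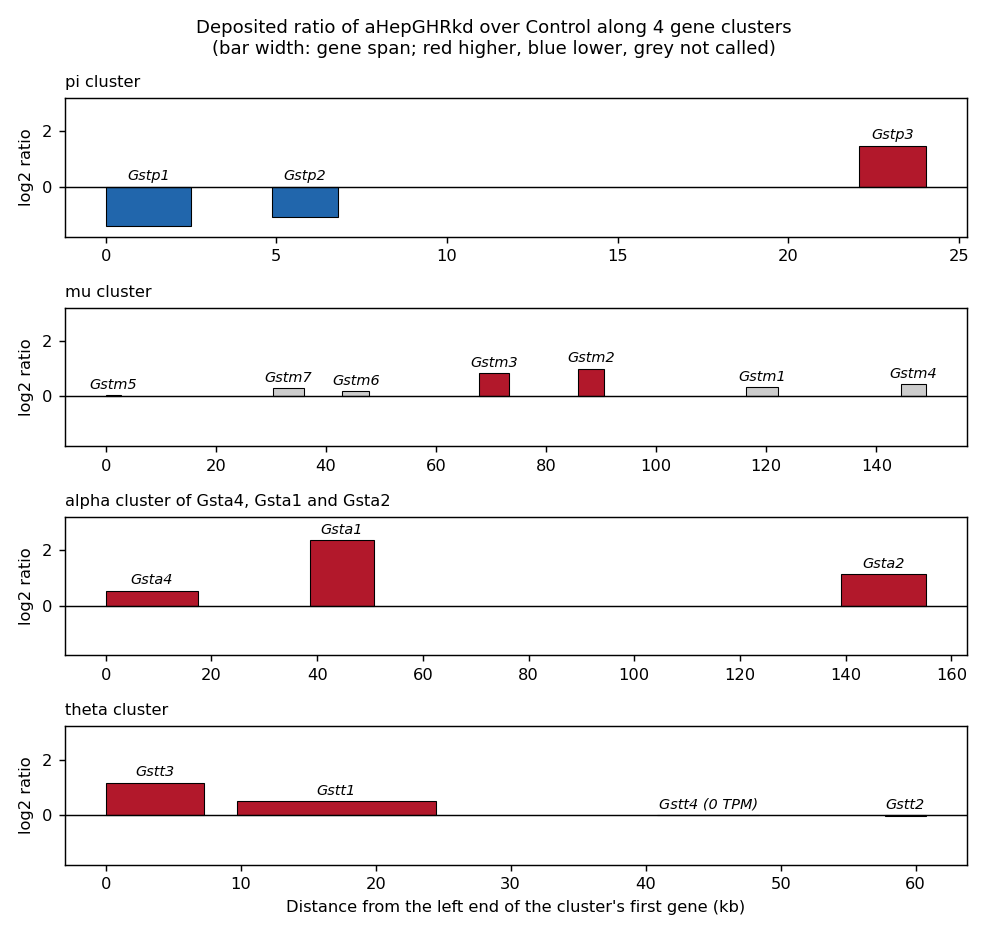
Log2 of the deposited ratio of aHepGHRkd over Control for each gene of 4 transferase clusters, drawn at its distance in kb from the left end of the cluster's first gene, with bar width showing the gene's span. Gstp1 and Gstp2 are the only bars called lower in these clusters, and Gstp3 at the far end of the same cluster is called higher.

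The alpha class was higher throughout in aHepGHRkd. Gsta2, an alpha enzyme known to be induced by electrophiles and antioxidants, stood at 132 TPM in aHepGHRkd, 118 in aHepGHRkd_rIGF1, 82.3 in aHepGHRkd_STAT5bCA and 59.0 in Control. The STAT5bCA group lay between the other Cre groups and Control. The authors' deposited table gives 2.20 for aHepGHRkd over Control (adjusted p = 9.83e-13), rank 66 among 312 coding features called higher.

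Gsta3, which in mice conjugates the epoxide of the mould toxin aflatoxin, is the abundant alpha gene here. It had 1790 TPM in aHepGHRkd, 1910 in aHepGHRkd_rIGF1, 1560 in aHepGHRkd_STAT5bCA and 1212 in Control (aHepGHRkd over Control 1.46, adjusted p = 8.32e-05, the authors' deposited table). An antisense feature, NC_AS_C1_103, overlaps it by 24359 bases and was called higher as well, at 124 TPM in aHepGHRkd and 88.4 in Control (1.38-fold, adjusted p = 0.000562, by the authors' deposited table). Without knowledge of strand the reads of these partners cannot be told apart. Gsta4, known for conjugating the lipid peroxidation product hydroxynonenal, had 168 TPM in aHepGHRkd, 172 in aHepGHRkd_rIGF1, 121 in aHepGHRkd_STAT5bCA and 114 in Control (aHepGHRkd over Control 1.45, adjusted p = 0.00119, the authors' deposited table). Its level with STAT5bCA was the nearest to Control of any of the 10 genes.

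Gsta2 has close relatives in its cluster on chromosome 9, where Gsta4, Gsta1 and Gsta2 span 155 kb. Gsta1 had 21.2 TPM in aHepGHRkd, 15.4 in aHepGHRkd_rIGF1, 10.4 in aHepGHRkd_STAT5bCA and 4.04 in Control. In the authors' deposited table aHepGHRkd exceeded Control by a ratio of 5.16 (adjusted p = 6.79e-10), the highest of the transferase genes with 1 TPM or more. A pair of predicted genes between Gsta1 and Gsta2 that share sequence with them, looked up after the sequence comparison, moved in the same way. Gm3776 had 9.24 TPM in aHepGHRkd, 6.50 in aHepGHRkd_rIGF1, 4.09 in aHepGHRkd_STAT5bCA and 1.75 in Control. Gm10639 had 1.06 TPM in aHepGHRkd, 0.545 in aHepGHRkd_rIGF1, 0.247 in aHepGHRkd_STAT5bCA and 0.0863 in Control.

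The order of the 4 groups was thus the same in Gsta1, Gsta2 and both predicted genes. Ratios of aHepGHRkd over Control in the authors' deposited table were 5.13 for Gm3776 (adjusted p = 3.57e-10) and 10.9 for Gm10639 (adjusted p = 4.78e-08). Of the 50-base words of Gsta2, 64.2% occur in transcripts of other genes, chiefly Gsta1, Gm10639 and Gm3776, and for Gsta1 the share is 89.7%. Their separate values are uncertain where the counting could split shared reads. Gsta3 and Gsta4 share no 50-base word with another gene.

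The RefSeq start regions of Gsta1 (chr9:78230419-78230718, plus strand) and Gsta2 (chr9:78347096-78347395, minus strand) on GRCm38.p6 are shown to let this pair be compared. Capitals again mark the bases that differ in a global alignment, in which 238 of 316 columns were identical (75.3%).
Gsta1: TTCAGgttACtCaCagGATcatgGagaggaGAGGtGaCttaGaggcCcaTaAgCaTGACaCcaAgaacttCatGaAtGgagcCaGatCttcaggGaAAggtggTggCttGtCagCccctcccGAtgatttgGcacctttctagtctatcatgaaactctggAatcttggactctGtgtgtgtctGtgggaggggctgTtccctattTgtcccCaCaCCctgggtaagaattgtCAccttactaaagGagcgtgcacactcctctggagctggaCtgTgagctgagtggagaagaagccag
Gsta2: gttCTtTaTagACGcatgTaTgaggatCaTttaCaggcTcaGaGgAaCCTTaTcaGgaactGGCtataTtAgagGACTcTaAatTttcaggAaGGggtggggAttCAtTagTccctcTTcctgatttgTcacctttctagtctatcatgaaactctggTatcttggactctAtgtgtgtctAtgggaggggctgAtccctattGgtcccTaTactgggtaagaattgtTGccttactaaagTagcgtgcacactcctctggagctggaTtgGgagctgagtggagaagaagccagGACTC

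Of the 4 mu genes, 2 rose. Gstm2 had 199 TPM in aHepGHRkd, 168 in aHepGHRkd_rIGF1, 230 in aHepGHRkd_STAT5bCA and 100.0 in Control, so its highest value was with STAT5bCA. The ratio to Control was 2.00 in aHepGHRkd by the authors' deposited table (adjusted p = 1.45e-05). Gstm3 had 381 TPM in aHepGHRkd, 428 in aHepGHRkd_rIGF1, 311 in aHepGHRkd_STAT5bCA and 211 in Control (aHepGHRkd over Control 1.79, adjusted p = 1.58e-06, the authors' deposited table).

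Gstm1, a major mu enzyme of mouse liver, had 2764 TPM in aHepGHRkd, 3178 in aHepGHRkd_rIGF1, 2781 in aHepGHRkd_STAT5bCA and 2176 in Control. Its ratio of 1.26 for aHepGHRkd over Control did not pass the test (adjusted p = 0.403, the authors' deposited table), although its TPM difference of 588 was about as large as the 578 of Gsta3. Gstm4 had 63.2 TPM in aHepGHRkd, 62.9 in aHepGHRkd_rIGF1, 60.7 in aHepGHRkd_STAT5bCA and 46.3 in Control (aHepGHRkd over Control 1.35, adjusted p = 0.201, the authors' deposited table). A p above the threshold does not show that Gstm1 and Gstm4 stayed level.

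All 7 mu genes of the table lie on chromosome 3 within 149 kb, and the pair called higher, Gstm3 and Gstm2, are neighbours in it. The remaining mu genes Gstm5, Gstm6 and Gstm7 had deposited ratios of aHepGHRkd over Control of 1.02, 1.13 and 1.23 in the authors' deposited table (adjusted p = 1, 1 and 0.308). Of the 50-base words of Gstm1 23.1% are shared with other genes, as are 28.8% of those of Gstm3 and 9.36% of those of Gstm2, while Gstm4 shares none.

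Gstt1, the theta enzyme known for conjugating small halogenated compounds, had 534 TPM in aHepGHRkd, 534 in aHepGHRkd_rIGF1, 427 in aHepGHRkd_STAT5bCA and 378 in Control. Over Control, aHepGHRkd had a ratio of 1.40 in the authors' deposited table (adjusted p = 0.0141). An antisense feature that overlaps it by 14331 bases, NC_AS_C10_9015, had a ratio of 1.38 (adjusted p = 0.0242, the authors' deposited table) with 37.3 TPM in aHepGHRkd and 26.8 in Control, and the same limit on strand holds. Beside Gstt1, Gstt3, which shares some sequence with a predicted gene, was called higher, at 103 TPM in aHepGHRkd and 45.5 in Control (ratio 2.24, adjusted p = 2.75e-07, the authors' deposited table). Gstt2, within the same 60.8 kb on chromosome 10, was not called (0.966, adjusted p = 1, the authors' deposited table).

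**Figure D3:**
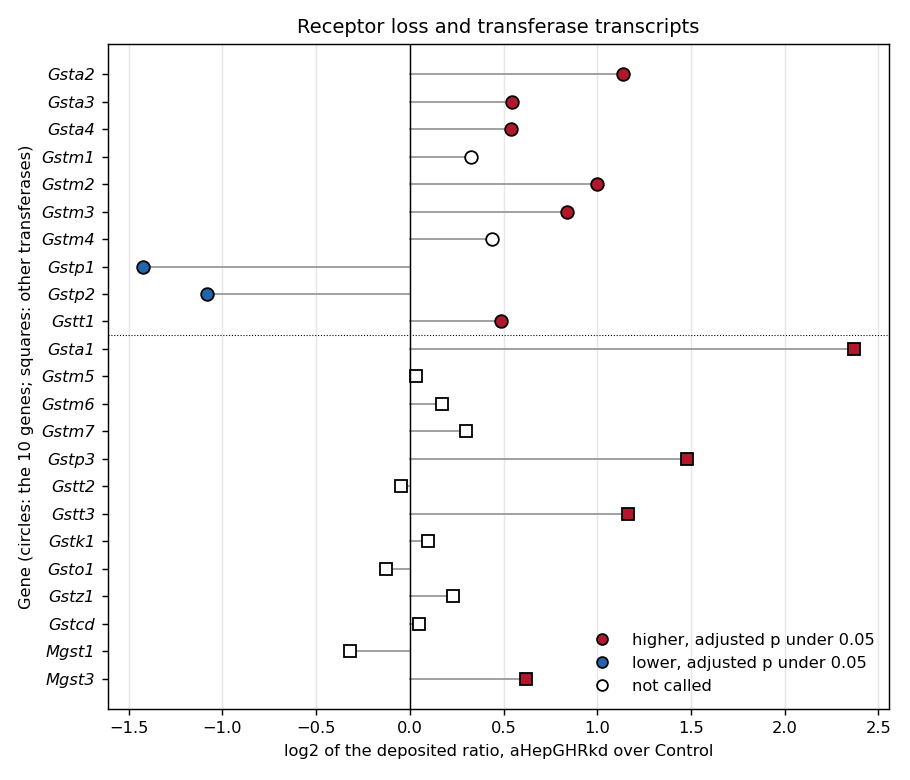
Log2 of the deposited ratio of aHepGHRkd over Control, as circles for the 10 genes and squares for the 13 other transferase genes with 1 TPM or more in every group. Filled points passed the authors' test, red for higher and blue for lower, and Gsta1 at 2.37 and Gstp1 at -1.42 are the extremes.

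Across the 17 other glutathione transferase genes of the table, 5 were called higher in aHepGHRkd and 0 lower. Among coding features with 1 TPM or more, 2.87% were called higher and 3.41% lower, and 1.79% of all features were called. The p-values are the authors' edgeR values, and unadjusted values are not in the table. Those called were Gsta1, Gstp3, Gstt3, Mgst3 and Gsto2. Mgst3, a membrane enzyme linked to leukotriene C, had 31.4 TPM in aHepGHRkd and 20.2 in Control (ratio 1.54, adjusted p = 0.00521, the authors' deposited table). Gsto2, an omega enzyme that reduces dehydroascorbate, was called at 0.316 TPM in aHepGHRkd and 0.0215 in Control (adjusted p = 0.0103, the authors' deposited table), levels far below those of the 10 genes.

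Other abundant transferases were not called. Mgst1, the membrane enzyme of the endoplasmic reticulum and mitochondria, had 2899 TPM in aHepGHRkd and 3607 in Control (ratio 0.802, adjusted p = 0.526, the authors' deposited table). The kappa gene Gstk1 (1.07), the omega gene Gsto1 (0.915) and Gstz1 (1.17), the maleylacetoacetate isomerase of tyrosine breakdown, had adjusted p of 1, 1 and 0.287 in the authors' deposited table. Gstcd, Hpgds and Mgst2 each had an adjusted p of 1 there, and Gstt4 was listed at 0 in both groups.

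Counted together, the 10 genes added up to 7663 TPM in aHepGHRkd, 8439 in aHepGHRkd_rIGF1, 7203 in aHepGHRkd_STAT5bCA and 8607 in Control. The total hid a shift between classes. Gstp1 made up 20.9% of the sum in aHepGHRkd, 21.7% in aHepGHRkd_rIGF1, 22.2% in aHepGHRkd_STAT5bCA and 49.3% in Control. The pi sum was 1632 TPM in aHepGHRkd and 4310 in Control, while the alpha sum was 2090 TPM in aHepGHRkd and 1385 in Control. The mu sum was 3407 TPM in aHepGHRkd and 2534 in Control. Without Gstp1 the other 9 genes summed to 6062 TPM in aHepGHRkd and 4361 in Control.

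**Figure D4:**
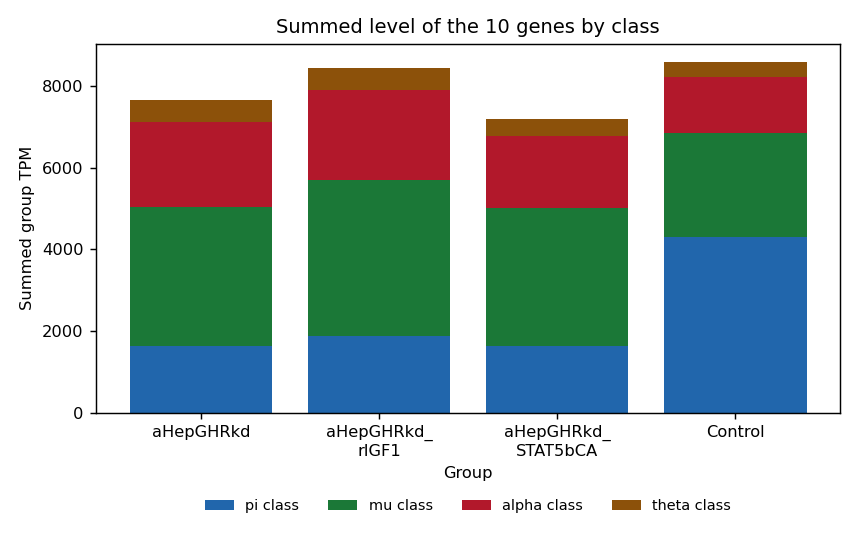
Summed group TPM of the 10 genes, stacked by class, for the 4 groups, with 1 value per group and no error bars. The pi part is 1632 TPM in aHepGHRkd, 1868 in aHepGHRkd_rIGF1, 1631 in aHepGHRkd_STAT5bCA and 4310 in Control.

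The order of the genes by level changed accordingly. Gstm1, Gsta3 and Gstp1 led in aHepGHRkd and in aHepGHRkd_rIGF1, Gstm1, Gstp1 and Gsta3 led in aHepGHRkd_STAT5bCA, and Gstp1, Gstm1 and Gsta3 led in Control. Gstt1 and Gstm3 followed in places 4 and 5 in every group. The least abundant gene was Gstp2 in each of the 3 Cre groups and Gstm4 in Control. Whether neighbours in these orders differ beyond the spread of mice cannot be read from group values.

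With rat IGF1 added, none of the 10 genes was called. Against aHepGHRkd, 0 of 10 passed the authors' edgeR test in either direction, where 0.0182% of the 10986 coding features with 1 TPM or more and 0.00792% of all features passed, and each member had an adjusted p of 1. Unadjusted p-values are not in the table, and no other tool could be run. Ratios of aHepGHRkd_rIGF1 over aHepGHRkd ran from 0.785 for Gstm2 to 1.07 for Gstm1 in the authors' deposited table, with a median log2 ratio of -0.03 beside -0.01 for coding features. The deposited ratio and the ratio of TPM values can differ in side, as for Gsta3, with a ratio of 0.996 in the authors' deposited table beside 1910 TPM in aHepGHRkd_rIGF1 and 1790 TPM in aHepGHRkd. With rIGF1, TPM was 0.432 times the Control value for Gstp1 and 1.99 times for Gsta2. The intervals of these ratios are not in the table, so how much change a value near 1 allows is not known.

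Active STAT5b gave a call for a single member. Against aHepGHRkd, Gsta2 was lower in the STAT5bCA group (0.647-fold by the authors' deposited table, adjusted p = 0.00147). No member was higher. Calls were made for 3.41% of the 10892 coding features with 1 TPM or more, 0.744% lower and 2.66% higher, and for 1.21% of all features. Gsta4 (0.746, adjusted p = 0.117) and Gstt1 (0.825, adjusted p = 0.657) fell short of the threshold, by the authors' deposited table. For Gsta3 (0.903), Gstm1 (1.04), Gstm2 (1.19), Gstm3 (0.842), Gstm4 (0.997), Gstp1 (1.04) and Gstp2 (1.06) the adjusted p was 1 in the authors' deposited table. The median log2 ratio over the members was -0.08, beside -0.01 for coding features. Both this comparison and that with Control use the aHepGHRkd mice, so a high or low aHepGHRkd value enters both with opposite sign.

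Both predicted relatives of Gsta2 were lower as well. Gm3776 was lower with STAT5bCA (ratio 0.470, adjusted p = 0.00872), as was Gm10639 (0.274, adjusted p = 0.00141), and Gsta1 was at 0.513 without passing the test (adjusted p = 0.121), all in the authors' deposited table. Of the 17 other transferases 0 were called higher or lower with STAT5bCA or with rIGF1 by the authors' edgeR test. Among coding features with 1 TPM or more, 3.41% were called with STAT5bCA and 0.0182% with rIGF1.

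Set beside Control, the groups with STAT5bCA and rIGF1 can be described by TPM only, since the table deposits no such comparison. With STAT5bCA, the excess over Control was 12.6% of the aHepGHRkd excess for Gsta4, 31.4% for Gstt1, 31.9% for Gsta2, 58.7% for Gstm3 and 60.2% for Gsta3. It was 131% for Gstm2, 103% for Gstm1 and 85.3% for Gstm4. The aHepGHRkd excess of Gstm1 and Gstm4 was itself not called, so their percentages are shares of an uncertain difference. For the pi genes the deficit against Control was 100.1% of the aHepGHRkd deficit for Gstp1 and 98.4% for Gstp2. The alpha and theta genes thus stood nearer Control than the pi genes did in the STAT5bCA group, a pattern of single group values without a test. With rIGF1 the same percentages ran from 68.8% for Gstm2 to 170% for Gstm1, whose excess was not called. They rest on TPM, and coding features had a median log2 TPM ratio of 0.09 for aHepGHRkd_rIGF1 over aHepGHRkd.

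**Figure D5:**
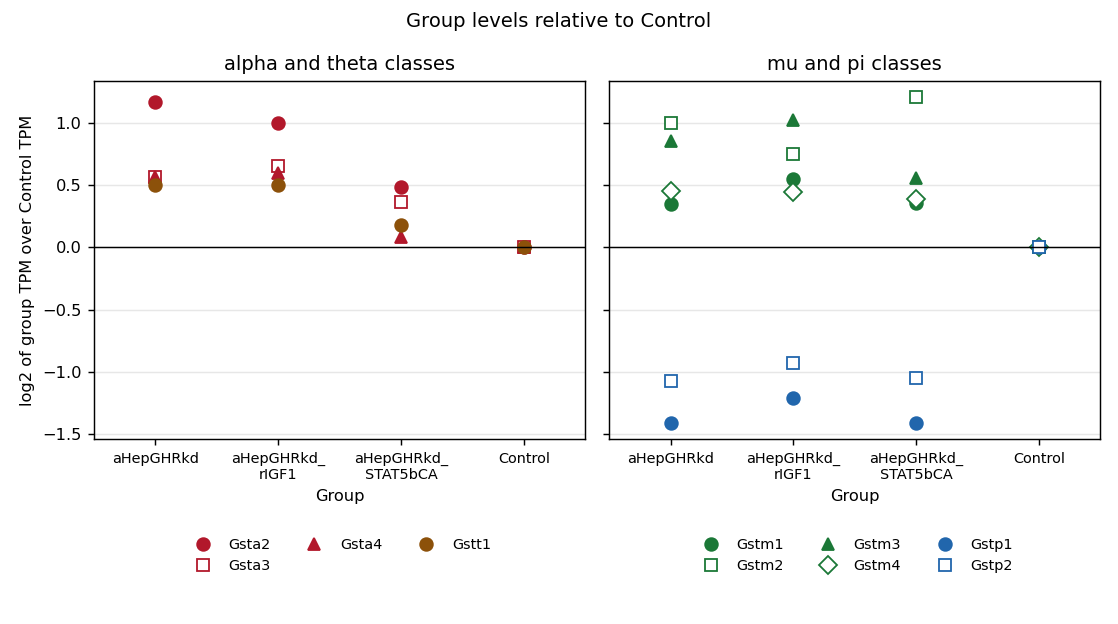
Log2 of group TPM over Control TPM for the alpha and theta genes (left) and the mu and pi genes (right), with 1 point per group and Control at 0 by construction. With STAT5bCA the alpha and theta points lie between 0.08 and 0.48, and the Gstp1 point lies at -1.41 both with and without STAT5bCA.

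Start regions of the members were searched for short motifs on both strands. RefSeq windows were found for 9 of the 10 genes, 11 windows in all. The STAT5 motif TTCNNNGAA was in 0 of them and in 8.30% of all 32851 windows of that length. The STAT5 motif with a spacer longer by 1 base was in the windows of Gstm3 and of Gstm1 (6.95% of all windows), and the core of the antioxidant response element, TGACNNNGC, was in the Gsta3 window (12.4%). The FOXA core TGTTTAC was in none of the members' windows (3.65%). Outside the 10 genes, TTCNNNGAA occurred in windows of Gsta1 (position -162 from the start), which was called higher, and of Gstm6 (-128), Mgst1 (31) and Mgst2 (39), which were not called in any comparison. A match is a description of letters and not a site, and a window without a match says nothing about binding elsewhere. The first transcribed bases of the Gsta3 window were not found in a GENCODE M21 transcript of that gene, so its start is uncertain. The windows of Gsta3 (chr1:21240335-21240634, plus strand, match at position -121) and Gstm3 (chr3:107969125-107969424, minus strand, match at position -229) on GRCm38.p6 are given with the match in capitals.
Gsta3: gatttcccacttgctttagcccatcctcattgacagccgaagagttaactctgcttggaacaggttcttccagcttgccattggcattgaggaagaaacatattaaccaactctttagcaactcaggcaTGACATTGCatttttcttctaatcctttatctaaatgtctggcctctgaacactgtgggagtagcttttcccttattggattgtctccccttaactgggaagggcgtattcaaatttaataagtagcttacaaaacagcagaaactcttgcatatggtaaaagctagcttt
Gstm3: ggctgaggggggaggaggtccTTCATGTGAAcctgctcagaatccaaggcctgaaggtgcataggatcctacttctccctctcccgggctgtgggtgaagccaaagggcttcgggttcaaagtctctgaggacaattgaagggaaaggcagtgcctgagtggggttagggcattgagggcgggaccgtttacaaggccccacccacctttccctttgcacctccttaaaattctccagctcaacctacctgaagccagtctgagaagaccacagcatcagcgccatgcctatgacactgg

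Genes of glutathione supply and use were counted against the 6.28% of coding features called in aHepGHRkd over Control. Of 17 genes of glutathione synthesis and salvage, 1 was higher and 1 lower in aHepGHRkd, with a median log2 ratio of 0.15, beside 0.03 for coding features. So small a count cannot be set apart from the share over coding features. Ggct, the gamma-glutamylcyclotransferase gene, was at 15.3 TPM in aHepGHRkd and 8.28 in Control (ratio 1.84, adjusted p = 6.22e-07), and the aminopeptidase gene Lap3 was at 160 TPM in aHepGHRkd and 200 in Control (ratio 0.793, adjusted p = 0.0336), in the authors' deposited table. Gclc, the catalytic subunit of the rate-limiting enzyme of glutathione synthesis, had a ratio of 1.29 (adjusted p = 0.404, the authors' deposited table). None of 16 glutathione redox genes was called by the authors' edgeR test, including the glutathione reductase gene Gsr (1.03, adjusted p = 1), nor was any of 9 genes that export or process conjugates. With STAT5bCA over aHepGHRkd, 2 of the 16 redox genes were higher in the authors' deposited table, the secreted peroxidase Gpx3 (3.03, adjusted p = 0.00149) and the glutaredoxin Glrx (1.61, adjusted p = 0.000293). In that comparison 2.66% of coding features with 1 TPM or more were higher and 0.744% lower, and so small a count cannot be set apart from these shares.

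Targets of the transcription factor NRF2, which induces several transferases, gave 2 of 20 higher and 0 lower in aHepGHRkd, beside 2.87% higher and 3.41% lower among coding features, with a median log2 ratio of 0.16. So small a count cannot be set apart from the share over coding features and is no result about the list. They were the epoxide hydrolase gene Ephx1 (1.41, adjusted p = 0.000454) and Pgd of the pentose phosphate pathway (1.41, adjusted p = 0.0104), in the authors' deposited table. Nqo1 (1.38, adjusted p = 0.671) and Nfe2l2, which encodes NRF2 itself (1.22, adjusted p = 0.360), were not called in the authors' deposited table. Of 15 genes tied to the xenobiotic receptors CAR, PXR and AHR, 4 were higher and 0 lower in aHepGHRkd, beside the same 2.87% and 3.41%. With STAT5bCA, 3 of the 15 were lower than in aHepGHRkd and 0 higher, beside 0.744% lower and 2.66% higher among coding features. This list was chosen with earlier results of these data known, so the counts are no result about these receptors. Cyp3a11 was at 6670.3 TPM in aHepGHRkd, 4045 in aHepGHRkd_STAT5bCA and 3627 in Control (aHepGHRkd over Control 1.81, adjusted p = 1.29e-07, and aHepGHRkd_STAT5bCA over aHepGHRkd 0.625, adjusted p = 0.00011, in the authors' deposited table). Cyp2b9 was at 287 TPM in aHepGHRkd and 1.35 in Control (adjusted p = 6.46e-88), and Cyp2b13 was at 36.5 TPM in aHepGHRkd and 0.0152 in Control (adjusted p = 1.00e-19), in the authors' deposited table. Cyp2c55 was lower with STAT5bCA than in aHepGHRkd (0.397, adjusted p = 3.79e-06, the authors' deposited table). Cyp2b10 had ratios of 7.68 for aHepGHRkd over Control (adjusted p = 6.28e-18) and 0.389 for aHepGHRkd_STAT5bCA over aHepGHRkd (adjusted p = 4.67e-08) in the authors' deposited table.

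Genes with the group pattern nearest to a called member were sought among coding genes with 1 TPM or more in all groups, by the distance over the 3 log2 TPM ratios to Control. For Gstp1 the nearest were Etnppl (distance 0.21), Mup9 (0.34) and Mup5 (0.36), and for Gstp2 they were Aldoc (0.12), Lpin1 (0.19) and Hao1 (0.20). For Gsta2 they were Wdr93 (0.05), Arrdc3 (0.08) and Tstd1 (0.12), and for Gsta4 Trak2, Cd63 and Mcam. Gstm2 lay nearest to Mcm2, Gadd45a and Fam126a, Gstm3 to Dyrk3, Nrp2 and Tenm3, and Gstt1 to Sh3bgrl, Ttr and Tbl1xr1. The distances rest on 3 ratios that share the Control value. Not all of these genes were called in aHepGHRkd over Control. Mup9, Cd63, Mcam, Dyrk3 and Tbl1xr1 did not pass the authors' edgeR test (adjusted p = 0.244, 0.450, 0.634, 0.199 and 0.0517).

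Markers of other cells were looked at beside the members. Of 5 erythrocyte genes 1, Alas2, was lower in aHepGHRkd (ratio 0.595 with adjusted p = 4.52e-09 by the authors' deposited table), and the list summed to 292 TPM in aHepGHRkd, 560 in aHepGHRkd_rIGF1, 466 in aHepGHRkd_STAT5bCA and 497 in Control. The 6 Kupffer cell genes, with 0 called by the authors' edgeR test, summed to 70.6 TPM in aHepGHRkd, 68.1 in aHepGHRkd_rIGF1, 73.1 in aHepGHRkd_STAT5bCA and 54.9 in Control. Stellate markers summed to 58.1 TPM in aHepGHRkd, 93.6 in aHepGHRkd_rIGF1, 54.7 in aHepGHRkd_STAT5bCA and 59.9 in Control, so the rIGF1 group was the highest. It was the highest for cholangiocyte markers too, with 47.1 TPM in aHepGHRkd, 63.8 in aHepGHRkd_rIGF1, 35.8 in aHepGHRkd_STAT5bCA and 38.6 in Control. Endothelial markers summed to 48.2 TPM in aHepGHRkd, 54.0 in aHepGHRkd_rIGF1, 47.9 in aHepGHRkd_STAT5bCA and 46.0 in Control. Neutrophil and lymphocyte markers summed to 13.7 TPM in aHepGHRkd, 13.8 in aHepGHRkd_rIGF1, 14.8 in aHepGHRkd_STAT5bCA and 12.3 in Control, and 0 of these 4 lists' genes were called by the authors' edgeR test. Of 7 hepatocyte genes, Ttr (1.38, adjusted p = 0.00386) was higher and Trf (0.598, adjusted p = 1.43e-08) lower in aHepGHRkd, in the authors' deposited table. In aHepGHRkd_STAT5bCA, where Gsta2 was lower than in aHepGHRkd, Alas2 was lower too (0.666, adjusted p = 0.00234, the authors' deposited table). The other 4 erythrocyte genes had ratios above 1 there without a call (Hba-a1 1.90, Hba-a2 1.86, Hbb-b1 1.90 and Hbb-b2 2.04). The list's median log2 ratio was 0.92. Among the hepatocyte genes, Trf was higher in that comparison (2.03, adjusted p = 1.07e-15, the authors' deposited table). No marker was at 0 in all groups. The part of these cells in the changes of the 10 genes was not tested.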

How the data were processed

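PolyA-selected liver RNA of 24 mice in 4 groups of 6, assigned from the labels, was sequenced. The authors used STAR, featureCounts and edgeR on the mouse build mm9, per the submitters' processing notes, with versions and settings not given in the sources used here. Their deposited table, per the file headers, holds exon-collapsed gene models with a TPM value per group, a ratio per comparison and a p-value column headed P-1. The p was read as adjusted because 69174, 75054 and 72384 of its values are exactly 1 for aHepGHRkd over Control, aHepGHRkd_rIGF1 over aHepGHRkd and aHepGHRkd_STAT5bCA over aHepGHRkd. In the copy analysed, 4 lines are blank. TPM keeps no depth, so precision per library is unknown, and labelled replicates could not be compared.

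Calls need a deposited p under 0.05. The 20879 features with NM accessions are taken as coding. The members and gene lists were chosen with earlier results of these data known. All 10 members were named, with called list genes, other transferases and the 3 genes nearest in pattern to called members, which for Gsta3 are not reported here. Promoters came from RefSeq (GRCm38.p6) and transcripts from GENCODE M21 (GRCm38), both used for sequence only, not for coordinates of the table. The motif search was tested on simulated strings. Symbols stand in capitals in the table. Python 3.11.15 and pandas 2.3.3 were used.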

Additional observations from a re-analysis of the deposited data

How the results depend on the processing

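The members called were counted again with p under 0.01 and with direction taken from the TPM ratio. These counts stayed within 1.5 times of the first count in each comparison. Keeping only coding features, or only those with 1 TPM or more, could change no count, since every member met both conditions. Requiring a fold of 2 or more left 3 of 8 calls for aHepGHRkd over Control (Gsta2, Gstp1 and Gstp2, with Gstm2 just below at 2.00) and 0 of 1 for aHepGHRkd_STAT5bCA over aHepGHRkd. By construction this setting drops smaller changes. Adding 0.1 or 1 TPM moved the members' log2 TPM ratios by at most 0.02, and subtracting the median of coding features by -0.05, -0.09 and 0.05 for aHepGHRkd over Control, aHepGHRkd_rIGF1 over aHepGHRkd and aHepGHRkd_STAT5bCA over aHepGHRkd. No called member changed direction in these settings. Adding TPM or subtracting the median could not have reversed a call, because these shifts were too small. The smallest called log2 TPM ratio was 0.50, for Gstt1 in aHepGHRkd over Control. No paired analysis was possible because the deposited table gives 1 value per group and none per replicate, and leaving out replicates was not run for the same reason. The depth of the libraries is unknown.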
